A study of Homo sapiens with 6 samples.

Results

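The genes described here code for the translation factors of human cells, the proteins that start, run and end the reading of an mRNA by the ribosome. They were chosen by name: every row of the deposited table whose symbol begins with EIF1 to EIF6, other than the EIF2AK kinases, or with EEF1 or EEF2, plus PABPC1, PABPC4, ETF1 and GSPT1. This rule found 65 genes among the 37879 rows of the table, and no measured value entered it. The symbols are those of the array's design, so 4 of the genes found by it, EIF2C1 to EIF2C4, are the Argonaute proteins of small RNA silencing and do not belong to initiation factor eIF2.

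RNA was taken from HEK293T cells, a human embryonic kidney line that carries the SV40 large T antigen. In the control group (3 samples) the cells had received an empty vector, and in the Stau1 group (3 samples) a plasmid that codes for Stau1 55, the 55-kDa isoform of the RNA-binding protein Staufen1, with a FLAG tag and, per the study's methods, under a Rous sarcoma virus promoter. Both groups were held in prometaphase, an early step of mitosis, with nocodazole, a drug that blocks spindle assembly (50 ng/ml for 15 h per the labels, a shorter time than the study's methods give). Each sample was total RNA of transfected cells on 1 Illumina HumanWG-6 v3 array, and the plasmid was introduced transiently, so cells that took it up and cells that did not were measured together.

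Initiation begins when eIF2 brings the initiator tRNA to the small ribosomal subunit, which eIF1, eIF1A, eIF3 and eIF5 also join. The cap-binding protein eIF4E, the scaffold eIF4G and the helicase eIF4A bring this complex to the 5′ end of an mRNA, it scans to the start codon, and eIF5B then joins the large subunit. Elongation factors eEF1 and eEF2 deliver tRNAs and move the ribosome, and eRF1 and eRF3, the products of ETF1 and GSPT1, release the finished protein. Staufen1 binds double-stranded stretches of mRNAs, and the question asked of these data is whether the transcripts of this machinery stand at another level in mitotic cells that also make Staufen1 from a plasmid.

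Values are log2 of the background-corrected, quantile-normalized intensity, and a difference is the mean of the Stau1 arrays minus the mean of the control arrays, with n = 3 arrays in each group throughout. The median intensity over all rows ran from 83.0 to 102.2 between arrays, from 12730 to 13469 rows of an array were detected at a p under 0.05, and Pearson's r across genes between arrays ran from 0.987 to 0.996. All 7 mitotic markers examined (CCNB1, PLK1, CDC20, AURKA, BUB1, CENPE and HMMR) were detected on all 6 arrays. Of 6 markers of HEK293T cells, NEFL, NEFM, CDH2 and VIM were detected on all 6 arrays, LHX1 on 4 and PAX2 on 1. Of 5 markers of other cell types, PTPRC, ALB and CD3E were detected on 0 arrays, while PECAM1 and COL1A1 were detected on all 6. STAU1, which the plasmid carries, read 11.21, 11.39 and 11.37 on control arrays 1, 2 and 3, and 11.41, 11.53 and 11.48 on Stau1 arrays 1, 2 and 3. The Stau1 arrays lay above the controls by 0.15 (SE 0.09), a difference that missed the threshold of 0.05 (limma, adjusted p = 0.999). Several probes are averaged in this row, and to what extent they see RNA made from the plasmid was not determined here.

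Many mRNAs of the translation machinery begin with a 5′ terminal oligopyrimidine tract, called TOP: a C at the first base followed by an unbroken run of C and T. The tract places the mRNA under control of growth signals at the level of its translation, through the kinase mTOR and the protein LARP1. The starts below are RefSeq sequences on GRCh38.p14, 10 bases before the first transcribed base and 20 from it, and the capitals mark the run. They are shown because the list of known TOP mRNAs and the run itself divide the factors further on: the elongation factors EEF1A1, EEF2, EEF1B2 and EEF1G, EIF4B and EIF3F are known TOP mRNAs, and EIF2S3 and EIF2A were not on the list of known TOP mRNAs but also have a run.
EEF1A1 (chr6:73521013-73521042, minus strand): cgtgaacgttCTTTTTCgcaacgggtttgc
EEF2 (chr19:3985444-3985473, minus strand): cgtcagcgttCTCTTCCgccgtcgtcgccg
EEF1B2, second of its listed starts (chr2:206159885-206159914, plus strand): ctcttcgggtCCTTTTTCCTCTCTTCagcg
EEF1G, no run at the listed base (chr11:62573872-62573901, minus strand): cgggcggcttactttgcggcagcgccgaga
EIF4B (chr12:53006446-53006475, plus strand): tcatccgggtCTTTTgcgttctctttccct
EIF3F (chr11:7987327-7987356, plus strand): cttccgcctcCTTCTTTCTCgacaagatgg
EIF2S3 (chrX:24054946-24054975, plus strand): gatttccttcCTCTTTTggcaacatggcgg
EIF2A (chr3:150546777-150546806, plus strand): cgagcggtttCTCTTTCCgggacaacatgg

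Searched for as a C at the first base and a run of at least 5 pyrimidines on the gene's own strand, the tract stood at 1 or more listed starts of 11 of the 52 translation factor genes with an entry used here (21.2%), and of 1404 of the 27305 genes in the RefSeq table (5.14%). Translation factor genes on chromosome 8 were not used for sequences, but the count over all genes of the RefSeq table kept that chromosome. Among the factors left out in this way were EEF1D, EIF3E, EIF3H and PABPC1, which are on the list of known TOP mRNAs. A run at a listed start is a match of letters and does not show where transcription begins in these cells.

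Of the 65 genes, 56 (86.2%) had a detection p under 0.05 on at least 3 arrays and were tested, against 35.1% of all rows. None of the 56 differed between the groups (limma, 0 at an adjusted p under 0.05, lowest adjusted p = 0.999), and over all 13285 tested rows the count was also 0 (0%). At an unadjusted p under 0.05 limma gave 1 of 56 genes (1.79%), EIF2C2, against a background of 3.73% of rows, and under 0.10 it gave 4 (7.14%) against 8.42%. The 3 Stau1 values lay entirely above the 3 control values in 2 genes, EIF2C2 and EIF5B, and entirely below in 0 (3.57% together). Over all rows these shares were 4.51% above and 3.4% below, 7.91% together. None of these shares stood above its background.

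The differences were small and ran both ways. They were above 0 in 32 genes and below in 24, with a median of 0.01 (all rows -0.00) and a median size of 0.07 (all rows 0.09), and they spanned -0.19 for EIF2A to 0.31 for EIF3A. The arrays bounded these differences fairly tightly: the 95% interval lay within 1.5-fold in either direction for 55 of the 56 genes, all but EIF3A, and no interval reached beyond 0.708-fold or 1.57-fold. Standard errors ran from 0.06 to 0.18. An interval of this width leaves room for changes of the size estimated for any single gene, and a p above the threshold does not show that the groups were equal. In RNA from a whole culture, fewer cells that use a gene and less of its RNA per cell cannot be told apart, and since no label says that the samples were separate cultures, the p-values measure the spread between these samples only.

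**Figure D1:**
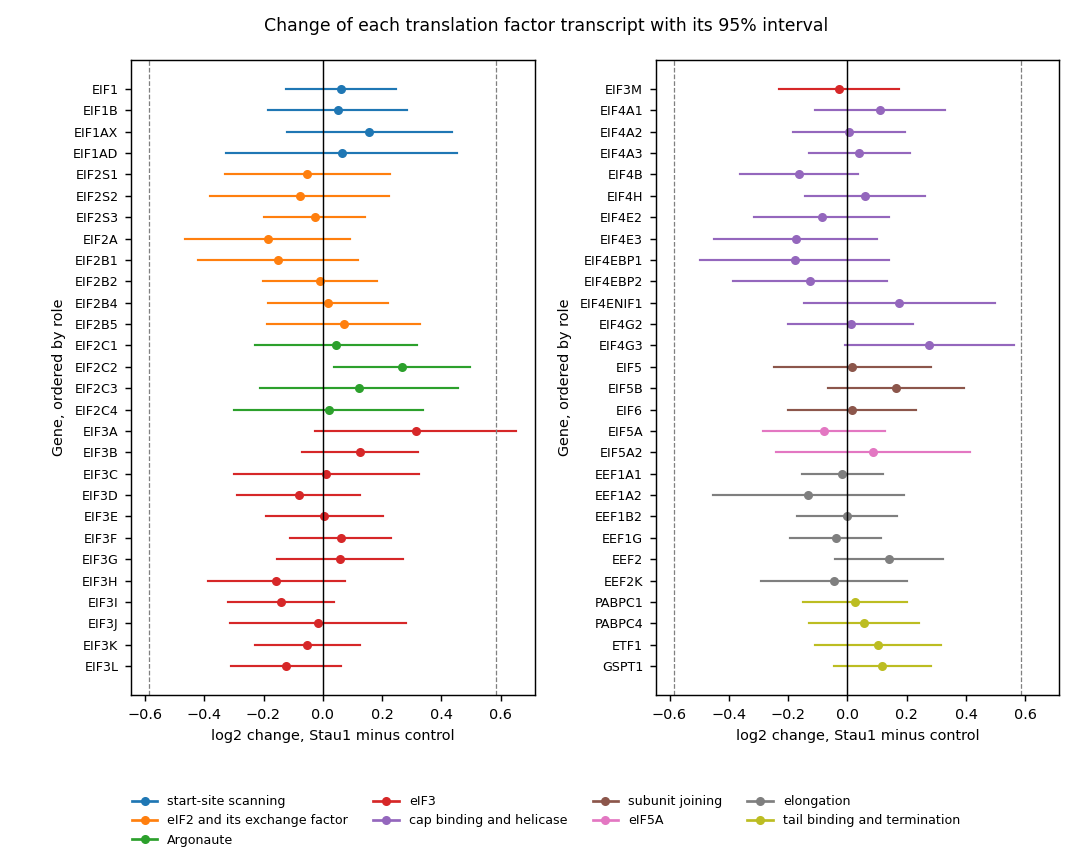
Difference in log2 intensity, Stau1 minus control, for the 56 translation factor genes tested, grouped by role and coloured by it. Points are differences of means of 3 arrays each, bars are limma's 95% intervals, and dashed lines stand at 1.5-fold in either direction. The intervals of all genes but EIF2C2 cross 0, and that of EIF3A alone passes a dashed line.

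The factors that bind the small subunit for scanning were taken first. EIF1, which guards the choice of start codon, read 13.38, 13.29 and 13.49 in control and 13.33, 13.56 and 13.46 in Stau1 arrays. EIF1AX, the X-linked gene of eIF1A, read 9.46, 9.74 and 9.85 in control and 9.99, 9.83 and 9.70 in Stau1 arrays. The groups overlapped in both, with differences of 0.06 (SE 0.09) and 0.16 (SE 0.13). EIF1B, a paralog of EIF1, differed by 0.05 (SE 0.11) and EIF1AD, which carries an eIF1A-like domain, by 0.06 (SE 0.18). All 4 tested genes of this group thus had differences above 0, with a median of 0.06 and none past the test. With the arrays weighted, or without control array 1, control array 2 or Stau1 array 1, 3 were above 0 and 1 below.

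The 3 subunits of eIF2 differed little. EIF2S1 codes for the alpha subunit, whose phosphorylation in stress holds initiation back, and read 8.37, 8.54 and 8.41 in control against 8.38, 8.48 and 8.30 in Stau1 arrays, a difference of -0.05 (SE 0.13). EIF2S2, the beta subunit, differed by -0.08 (SE 0.14). EIF2S3, the gamma subunit that holds GTP and the tRNA and whose start is printed above, read 12.57, 12.59 and 12.49 in control and 12.48, 12.53 and 12.55 in Stau1 arrays, a difference of -0.03 (SE 0.08). Its 6 values had an SD of 0.05, among the smallest of all 56 genes, and the 95% interval was -0.20 to 0.14. The exchange factor eIF2B, which reloads eIF2 with GTP, was measured by 4 subunits: EIF2B5, the catalytic one, differed by 0.07 (SE 0.12), EIF2B4 by 0.02, EIF2B2 by -0.01 and EIF2B1 by -0.15 (SE 0.13).

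EIF2A, which despite its name is not a subunit of eIF2 and can bring initiator tRNA to the ribosome by another route, had the lowest difference when all 6 arrays were used. It read 10.93, 11.26 and 10.88 in control and 10.65, 11.06 and 10.80 in Stau1 arrays, so that the group means of 11.02 ± 0.21 (SD, n = 3) and 10.84 ± 0.21 (SD, n = 3) differed by less than the spread within either group. The difference was -0.19 (SE 0.13, limma, unadjusted p = 0.173, adjusted p = 0.999). With the replicate number as a block the SE was 0.09 (limma, unadjusted p = 0.0674, adjusted p = 0.985). Whether these numbers pair the samples is not settled. With array weights the difference was -0.27 (limma, unadjusted p = 0.0286, adjusted p = 0.452). Single arrays moved it: it was -0.07 without control array 2, where EEF1A2 was lower (-0.24), -0.09 without Stau1 array 1 and -0.30 without Stau1 array 2. Over the 8 genes of this group the median difference was -0.04, with 2 above 0, 6 below and none past the test. Scaling the arrays by their medians turned it to 0.04, but moved the median of all rows to 0.07 as well.

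The scaffold eIF3, the largest of the initiation factors, was measured by 13 subunits, and its differences ran both ways, 6 above 0 and 7 below, with a median of -0.02; with median scaling they were 9 above and 4 below, with a median of 0.06. EIF3A, the subunit on which the complex is built, had the highest difference of any gene tested and also the largest SD over the 6 arrays (0.31). It read 10.29, 10.39 and 10.98 in control and 11.02, 10.84 and 10.73 in Stau1 arrays, and control array 3 lay inside the range of the Stau1 arrays. The difference was 0.31 (SE 0.16; 95% interval -0.03 to 0.65; limma, unadjusted p = 0.0681, adjusted p = 0.999). Its size moved with the control arrays. It rose to 0.53 without control array 3 (limma, adjusted p = 0.0784). It fell to 0.18 without control array 1 (limma, adjusted p = 0.971) and to 0.23 without control array 2.

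EIF3B, another core subunit, was also highest in control on array 3, with 12.60, 12.42 and 12.73, and read 12.71, 12.67 and 12.74 in Stau1 arrays. The groups overlapped and differed by 0.12 (SE 0.09). EIF3C, the third of the core, differed by 0.01 (SE 0.14); its close copy EIF3CL can share its probe, and the transcripts were not told apart. Among the outer subunits, EIF3I read 13.55, 13.39 and 13.34 in control and 13.19, 13.30 and 13.36 in Stau1 arrays, a difference of -0.14 (SE 0.08; limma, unadjusted p = 0.114). EIF3H differed by -0.16 (SE 0.11) and EIF3L by -0.12 (SE 0.09), and in both the lowest value was that of Stau1 array 1, 11.91 and 12.93. Without that array the differences were -0.05 and -0.06, and without control array 3 they were -0.23 and -0.18. The other 7 subunits lay between -0.08 (EIF3D) and 0.06 (EIF3F). The subunits of this complex thus differed in sign, none past the test.

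Cap binding and unwinding held the widest range outside eIF3. EIF4G3, one of the scaffolds that hold eIF4E, eIF4A and eIF3 together, read 9.40, 9.65 and 9.82 in control and 9.73, 10.04 and 9.92 in Stau1 arrays. Only Stau1 array 1 lay within the control range, and the difference was 0.28 (SE 0.13; 95% interval -0.01 to 0.56; limma, unadjusted p = 0.0572, adjusted p = 0.999). Without control array 1 it was 0.16 (limma, unadjusted p = 0.20, adjusted p = 0.971) and without control array 3 it was 0.38 (limma, adjusted p = 0.274). EIF4G2, a relative that lacks the eIF4E-binding part, read 12.76, 12.88 and 12.96 in control and 12.75, 13.07 and 12.81 in Stau1 arrays, a difference of 0.01 (SE 0.10). The third scaffold gene, EIF4G1, failed the detection filter and is described further on.

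The helicase itself comes from close paralogs, whose probes may read one another's transcripts. EIF4A1 read 14.60, 15.04 and 15.00 in control and 14.92, 14.99 and 15.06 in Stau1 arrays, and its difference of 0.11 (SE 0.10) rested on control array 1, since without it the value was -0.03. EIF4A2 differed by 0.01 (SE 0.09). EIF4A3, which belongs to the exon junction complex on spliced mRNAs, read 12.70, 12.70 and 12.80 in control and 12.72, 12.78 and 12.82 in Stau1 arrays, a difference of 0.04 (SE 0.08) at an SD over arrays of 0.05, the third smallest of the 56. Of the cofactors of eIF4A, EIF4H differed by 0.06 (SE 0.09). EIF4B, with the run at its start shown above, read 12.68, 12.72 and 12.58 in control and 12.34, 12.64 and 12.51 in Stau1 arrays. This was the lowest unadjusted p among genes with a difference below 0: -0.16 (SE 0.09, 95% interval -0.36 to 0.03, limma, unadjusted p = 0.0968, adjusted p = 0.999). The difference was -0.08 without Stau1 array 1 and -0.23 without Stau1 array 2.

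The proteins that bind eIF4E to keep it from eIF4G include EIF4EBP1, which read 8.09, 8.34 and 8.15 in control and 8.18, 7.80 and 8.08 in Stau1 arrays. Stau1 array 2 was the lowest of the 6, the others overlapped, and the difference was -0.18 (SE 0.15). EIF4EBP2 differed by -0.13 (SE 0.12). The eIF4E relatives EIF4E2 and EIF4E3 differed by -0.09 (SE 0.11) and -0.18 (SE 0.13), and the eIF4E transporter EIF4ENIF1 by 0.18 (SE 0.15). Over the 12 tested genes of this group, 7 differences were above 0 and 5 below, with a median of 0.01.

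Among the factors of subunit joining, EIF5B, the GTPase that joins the large subunit, was 1 of the 2 genes whose groups did not overlap. It read 9.84, 9.70 and 9.75 in control and 9.99, 9.94 and 9.85 in Stau1 arrays. The closest values, control array 1 and Stau1 array 3, differed by only 0.01. The difference of 0.16 (SE 0.11) did not pass the test (limma, unadjusted p = 0.145, adjusted p = 0.999). EIF5, which has eIF2 hydrolyse its GTP at the start codon, and EIF6, which keeps the large subunit from joining early, each differed by 0.02 (SE 0.12 and 0.10).

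EIF5A, whose product carries the amino acid hypusine and helps the ribosome over difficult stretches, read 12.66, 12.41 and 12.48 in control and 12.56, 12.31 and 12.43 in Stau1 arrays, a difference of -0.08 (SE 0.10). Its paralog EIF5A2 differed by 0.08 (SE 0.15).

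Elongation was measured by 6 tested genes, with 1 difference above 0 and 5 below and a median of -0.03. This balance turned to 4 above and 2 below both with median scaling (median 0.03) and without Stau1 array 1 (median 0.00). EEF1A1, which delivers aminoacyl-tRNAs, read 15.50, 15.55 and 15.58 in control and 15.48, 15.52 and 15.58 in Stau1 arrays. Its difference was -0.02 (SE 0.06; 95% interval -0.15 to 0.12). The row had among the smallest SDs of the 56 genes, 0.04. But its raw intensity of 40496 to 53159 lay close to the highest of any row on an array (46625 to 57746). Bead signal can be compressed there. Quantile normalization also gives rows of the same rank the same value on every array, such as 15.58 on control array 3 and Stau1 array 3. For a row this near the top, it can narrow the SD and the interval whatever the raw spread. Probes of EEF1A1 may also read its paralog and pseudogenes. EEF1B2 and EEF1G, subunits of the factor that reloads eEF1A with GTP, differed by -0.00 (SE 0.08) and -0.04 (SE 0.07).

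EEF1A2, the paralog of EEF1A1 known from neurons and muscle, read 12.43, 12.25 and 12.71 in control and 12.71, 12.14 and 12.15 in Stau1 arrays. It had the second largest SD over the 6 arrays (0.26), and the high values fell 1 in each group, on control array 3 and Stau1 array 1, so its difference of -0.13 (SE 0.15) was no larger than the spread. EEF2, the translocase, read 13.79, 14.02 and 14.07 in control and 14.16, 14.04 and 14.10 in Stau1 arrays, a difference of 0.14 (SE 0.08; limma, unadjusted p = 0.12, adjusted p = 0.999), with control array 1 below all others. Without that array the difference was 0.06, and without control array 3 it was 0.19. EEF2K, the kinase that inhibits eEF2, differed by -0.04 (SE 0.11).

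At the 3′ end and the stop codon, PABPC1, the main cytoplasmic poly(A)-binding protein, read 12.72, 12.58 and 12.60 in control and 12.58, 12.67 and 12.71 in Stau1 arrays, a difference of 0.03 (SE 0.08). PABPC4, its paralog, differed by 0.06 (SE 0.09). The release factor genes ETF1 and GSPT1 differed by 0.10 (SE 0.10) and 0.12 (SE 0.08), and in GSPT1 the values were 13.44, 13.58 and 13.62 in control against 13.68, 13.71 and 13.61 in Stau1 arrays. All 4 differences of this group were above 0, with a median of 0.08, and none passed the test. Without Stau1 array 3, 3 were above 0 and 1 below.

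The Argonautes bind microRNAs and siRNAs, and EIF2C2, now called AGO2, is the one that cuts its target. It read 10.11, 9.85 and 10.01 in control and 10.25, 10.23 and 10.29 in Stau1 arrays, and the groups did not overlap. The Stau1 values were close together, at 10.26 ± 0.03 (SD, n = 3), against 9.99 ± 0.13 (SD, n = 3) in control. The difference was 0.27 (SE 0.11; 95% interval 0.04 to 0.49; limma, unadjusted p = 0.0258, adjusted p = 0.999), and the exact permutation p, two-sided, was 0.1, the smallest that 3 arrays against 3 allow. With 1 array left out it ran from 0.20 (without control array 2; limma, unadjusted p = 0.0963) to 0.32 (without control array 1; limma, unadjusted p = 0.00737). EIF2C1, EIF2C3 and EIF2C4 differed by 0.04 (SE 0.13), 0.12 (SE 0.15) and 0.02 (SE 0.15), with overlapping groups in each. The median over the 4 was 0.08, and after cyclic loess 3 of the 4 lay above 0 and 1 below. The same counts came without control array 1, control array 2, Stau1 array 2 or Stau1 array 3, with medians from 0.02 to 0.10.

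**Figure D2:**
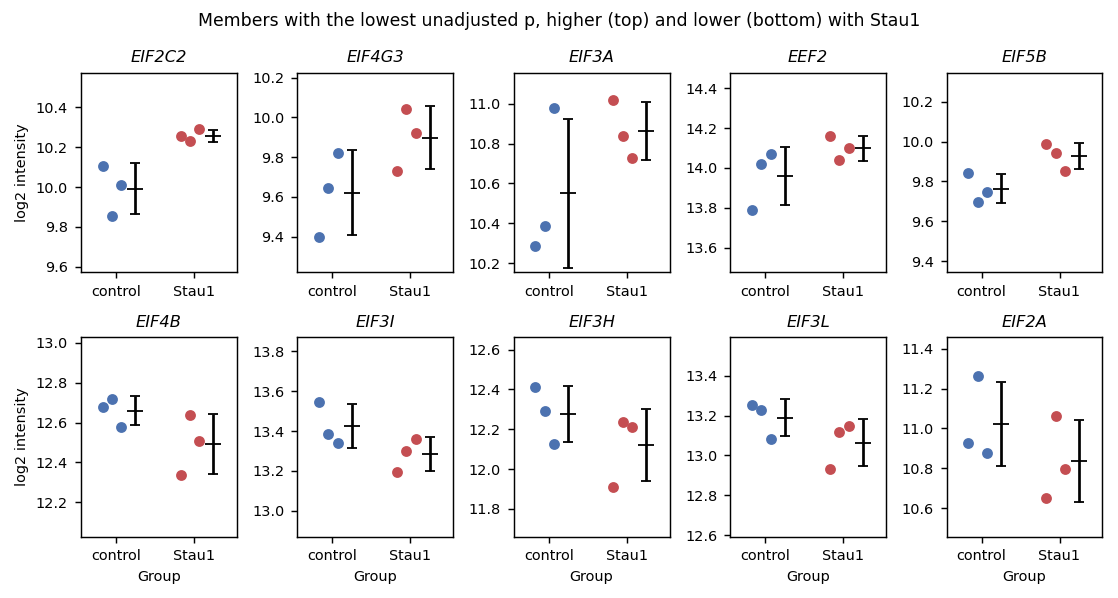
Log2 intensity of the 5 genes with the lowest unadjusted p above 0 (top) and below 0 (bottom), by group. Dots are single arrays, replicates 1 to 3 from left to right, and the line with bars is the group mean with its SD; each panel has its own axis of equal height. The groups are apart in EIF2C2 and EIF5B and overlap in the other 8 genes.

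The detection filter left out 9 of the 65 genes: EIF1AY, EIF3IP1, EIF4E, EIF4E1B, EIF4EBP3, EIF4G1, EIF5AL1, EEF1D and EEF1E1. For most of them the intensity was low, but EIF4G1, EEF1D and EEF1E1 were bright. Where a row stands for several probes its detection p is a combined value. Of the 6996 rows in all with a median intensity above 300, 222 failed the filter, and 0 of those came from 1 probe. These genes were therefore also fitted over all 37879 rows with no filter. The groups of 4 of the 65 genes then did not overlap (against 8.79% of rows), and 2, EIF2C2 and EIF4G1, had an unadjusted p under 0.05 in limma (against 4.13% of rows). A filter on intensity in place of the detection p gave the same 2 genes (against 3.77% of rows).

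EIF4G1, the main scaffold of cap-dependent initiation, had the largest difference of any of the 65 genes. Its row averages at least 4 probes, and its raw intensities were 975, 971 and 1851 on control and 1570, 1760 and 1879 on Stau1 arrays. After normalization it read 10.22, 9.97 and 10.47 in control and 10.68, 10.61 and 10.72 in Stau1 arrays. All Stau1 values lay above all control values, and the control values spread more (SD 0.25 against 0.06). The difference was 0.45 (SE 0.13; 95% interval 0.17 to 0.73; limma over all rows, unadjusted p = 0.00371, adjusted p = 0.999), which is not past the threshold.

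Over all rows 4.54% had all Stau1 values above all control values, and EIF4G1 stood at rank 87 by p among them. Of the 222 bright rows lost to the filter, 9 (4.05%) had an unadjusted p under 0.05. With 1 array left out the difference of EIF4G1 ran from 0.32 (without control array 2; limma, adjusted p = 1.00) to 0.58 (without control array 3; limma, adjusted p = 0.136). Under the other ways of processing all 6 arrays it ran from 0.43 to 0.59, and the groups overlapped only when arrays were scaled by their medians.

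EEF1D, a subunit of the eEF1 exchange factor, read 11.28, 11.06 and 11.00 in control and 11.27, 11.01 and 11.17 in Stau1 arrays. EEF1E1, a component of the multi-tRNA synthetase complex, read 10.62, 10.96 and 10.82 in control and 10.70, 10.93 and 10.84. Both differed by 0.03, with SE 0.11 and 0.12, and their groups overlapped. EIF4E, the cap-binding protein itself, was dim on every array, with a detection p under 0.05 on 0 of 6. Its row averages at least 3 probes, so that this p is a combined value, and it passed the filter on intensity. It read 6.08, 6.02 and 6.10 in control against 6.37, 6.37 and 6.04 in Stau1 arrays. Stau1 array 3 lay among the controls, and the difference of 0.19 (SE 0.14) was not past the test (limma over all rows, adjusted p = 0.999).

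**Figure D3:**
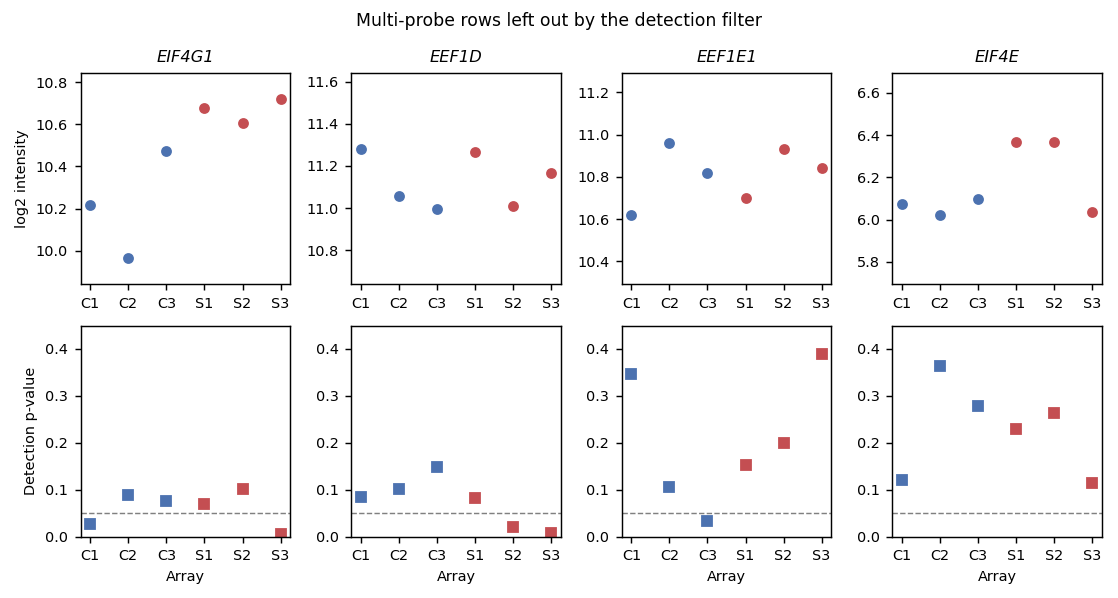
Log2 intensity (top, normalized with all rows) and detection p-value (bottom) of 4 genes that the detection filter left out, on control arrays C1 to C3 (blue) and Stau1 arrays S1 to S3 (red); the dashed line is 0.05. The Stau1 arrays of EIF4G1 (10.61 to 10.72) lie above its control arrays (9.97 to 10.47), and most detection p-values lie above the line although EIF4G1, EEF1D and EEF1E1 are bright.

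The genes on the TOP list differed in both directions. The list was drawn from general knowledge and may not be complete, and 6 factors that are not on it had a run at a listed start. Of its 10 TOP mRNAs (EEF1A1, EEF1B2, EEF1D, EEF1G, EEF2, EIF3E, EIF3F, EIF3H, EIF4B and PABPC1), 9 were tested. Their differences had a median of -0.00, 4 above 0 and 5 below, against 0.02 for the other 47 tested factors. Those of the TOP genes ranged from -0.16 (EIF4B) to 0.14 (EEF2). Both of these shrank without 1 array and grew without another, as given above. None of the 9 passed the test and none had groups that did not overlap. Both ends of this range thus carry a run at the start, as printed above. Divided by the sequence in place of the list, the 11 genes with a run of at least 5 pyrimidines had a median of -0.03, with 3 above 0 and 8 below. The 34 tested genes with an entry and no run had a median of 0.03, with 23 above 0 and 11 below. The run genes were also brighter, with a median log2 intensity of 12.70 against 10.44, so run and brightness cannot be told apart here. Scaling by medians turned the counts of the run genes to 8 above and 3 below, with a median of 0.04, against 0.11 for those without a run and 0.07 for all rows, and leaving out Stau1 array 1 gave them a median of 0.00, with 6 above and 5 below.

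The closeness of the arrays varied widely among the TOP genes, and it was not tested against the other factors. The SD over all 6 arrays had a median of 0.07 for the 9 TOP genes and 0.12 for the other 47, but EIF3H (0.17), EIF4B (0.14), EEF2 (0.13) and EIF3E (0.12) lay above the median of the others. The medians were 0.08 against 0.12 when the genes were divided by the run at the start. Within the run genes it spanned 0.04 to 0.21 (EIF2A). The 0.04 is that of EEF1A1, the row near the top of the intensity range, where quantile normalization can narrow the SD. Signal strength moved with this: all 9 TOP genes had a mean log2 intensity above the upper quartile of tested rows (9.75). Probe brightness does not rank transcripts of different genes by amount, and it is given here only beside the spread. Among the other factors above that quartile (32 genes) the median SD was 0.12, and among all rows above it 0.12.

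**Figure D4:**
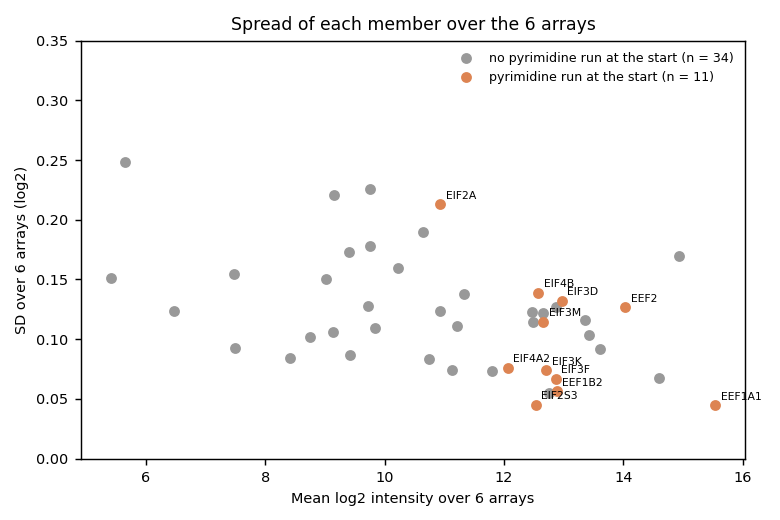
SD over the 6 arrays against mean log2 intensity for the 45 tested genes with a listed start, with a pyrimidine run of at least 5 bases at the start (orange, named, n = 11) and without (grey, n = 34). EIF2S3 and EEF1A1 have the lowest SDs, and EIF2A, at 0.21, has the highest among genes with a run.

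The arrays of the control group were further apart than those of the Stau1 group, in these genes as in the whole table. The median SD within a group was 0.13 in control and 0.09 in Stau1 for the factors, and 0.17 and 0.12 for all tested rows, and 38 of the 56 genes had the larger SD in control. Control array 1 was the one furthest from the median of all 6 in 20 genes (35.7%), close to its share of all rows (35.4%), and control array 2 in 13. Stau1 array 3 was furthest in 1 gene (1.79%, against 7.80% of rows). EIF2B1 and EIF4EBP2, chosen after their values were seen, show the high side of control array 1, at 11.00 and 10.54 against 10.46 to 10.64 and 10.11 to 10.21 on the other 5 arrays.

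**Figure D5:**
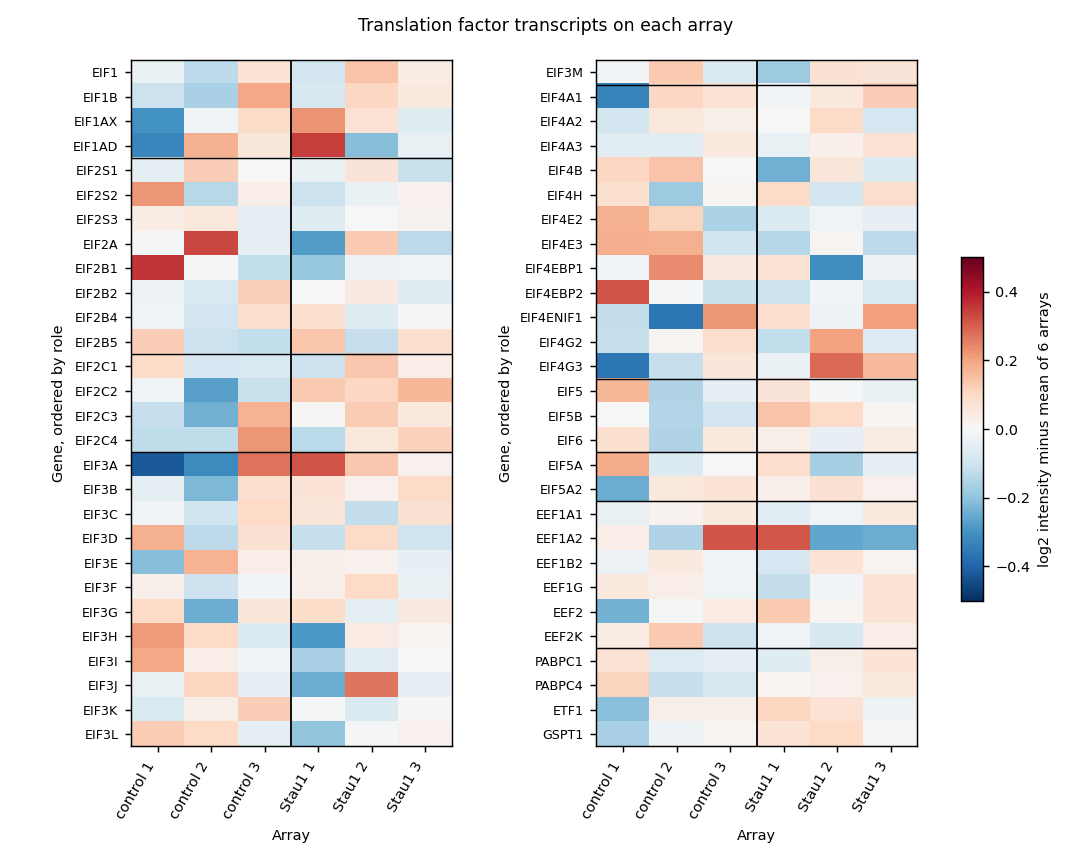
Log2 intensity on each array minus the mean over the 6 arrays, for the 56 tested genes in order of role (horizontal lines divide roles, vertical lines the groups); red is above and blue below the gene's mean, up to 0.5. The strongest colours lie in control arrays 1 and 2: EIF3A, EIF4G3 and EIF2B1 on the first and EIF4ENIF1 on the other.

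The proteins that act on these factors were read from a second list of 40 genes, among them the eIF2 alpha kinases and phosphatase subunits, the mTOR pathway, the hypusine and diphthamide enzymes and the ribosome rescue factors. All 40 had a row (MTOR under its older symbol FRAP1) and 37 were tested, all but HBS1L, LARP1 and PAIP2B. None differed between the groups (limma, 0 at an adjusted p under 0.05). An unadjusted p under 0.05 was found in 1 (2.70%, limma), against 3.73% of rows. The groups did not overlap in 4 (10.8%), against 7.91% of rows in either direction. In all 4 the Stau1 values lay above, against 4.51% of rows in that direction, and this count was not tested. The differences had a median of 0.03, 24 above 0 and 13 below, and ran from -0.23 (EIF2AK3) to 0.39 (ABCF1). LARP1 was left out by the detection filter, with a detection p under 0.05 on 1 array, but its row averages at least 2 probes and was not dim. It read 9.01, 8.89 and 8.68 in control and 8.87, 9.09 and 9.21 in Stau1 arrays, with overlapping groups.

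The genes of this list named next were chosen after their values were seen. ABCF1, an ATPase that binds eIF2 and ribosomes, read 10.63, 10.36 and 10.93 in control and 11.05, 10.95 and 11.07 in Stau1 arrays, a difference of 0.39 (SE 0.13; limma, unadjusted p = 0.0104, adjusted p = 0.999). EIF2AK4, the kinase GCN2 that phosphorylates eIF2 alpha when amino acids run short, read 7.99, 8.01 and 7.95 in control and 8.30, 8.12 and 8.17 in Stau1 arrays, a difference of 0.22 (SE 0.13). PDCD4, an inhibitor of eIF4A, and CDC123, which helps eIF2 assemble, differed by 0.13 (SE 0.11) and 0.09 (SE 0.08). These 4 were the genes whose Stau1 values all lay above the control values, and none passed the test. FRAP1, the kinase mTOR, differed by 0.12 (SE 0.13), with overlapping groups.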

How the data were processed

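Total RNA of 6 samples (3 control, 3 Stau1, grouped by the transfection in the labels) was measured on Illumina HumanWG-6 v3 arrays. Per the file headers the authors exported a gene profile from BeadStudio without normalization: each row is the mean over the probes of 1 gene. The deposited intensity was neither background-subtracted nor normalized. The deposited detection p-value compares it with the negative control beads, and the deposited mean number of beads is treated as a score. The bead standard error, in intensity units, was not used. No genome build is given in the sources used here.

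Intensities were background-corrected with normexp (limma 3.58.1, R 4.3.3; offset 16), quantile-normalized and put on the log2 scale. Background came from the detection p of the 30932 rows read as single probes (a whole number of beads, and a p that times 759 is whole within 0.002), with means of 74.6 to 92.7. Rows with a detection p under 0.05 on 3 or more arrays (13285) were tested with limma (lmFit, eBayes with trend) and adjusted by Benjamini-Hochberg over all of them. The array number limits the precision. The fit was tested on simulated data first.

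The genes and lists were chosen with earlier results of these data known, and support nothing by themselves. Genes were named by this rule: the 5 with the lowest unadjusted p in each direction, a list of main factors (EIF4G1 and EIF4E among them), those not tested, the 3 with the largest and the 3 with the smallest SD over arrays, and STAU1. The other factors are named to complete their role. Alternatives were no background correction, background from all rows, an offset of 50, cyclic loess, median scaling, a generalised log, other filters, array weights, a replicate block, leaving out each array, and the t-test of the study's methods, two-sided with equal variances. Chosen after the data were seen were a filter on intensity (above the background mean plus 1.645 SD on 3 or more arrays) and, for EIF4G1, the other choices without a filter. Starts came from a RefSeq promoter table (GRCh38.p14, 35116 starts).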

Additional observations from a re-analysis of the deposited data

How the results depend on the processing

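Under every alternative run, limma called 0 of the translation factors and 0 of the 40 partner genes at an adjusted p under 0.05. The t-test of the study's methods gave 2 factors at an unadjusted p under 0.05, EIF2C2 and EIF5B, 0 after adjustment and 0 past 2-fold; with no filter it added EIF4G1 (unadjusted p = 0.0404). The lowest adjusted p of any factor with all 6 arrays was 0.275 (EIF2C2, with array weights). The count at an unadjusted p under 0.05, 1 as reported, was 2 with the background from all rows, with no filter, with the replicate block and with the intensity filter, 6 (10.7%, against 9.71% of rows) with array weights and 0 with median scaling. Leaving out 1 array gave 0 to 6, the 6 without control replicate 3, where 12.8% of all rows passed and 39 rows, none of them a factor, passed the adjusted threshold; the cause was not tested. Genes whose groups do not overlap, 2 as reported, were 0 with median scaling, 4 with no filter (which tests more genes) and 4 to 21 with 1 array left out, where fewer samples make it easier; the 21 came without control replicate 3, against 29.1% of rows. Median scaling moved the median difference of the factors to 0.0892 and that of the TOP genes to 0.042, while the median of all rows moved to 0.0679, so relative to all rows the factors stayed near 0. With 1 array left out these medians ran from -0.01 to 0.02 and from -0.02 to 0.01. EIF4A1 reversed to -0.0258 without control replicate 1, and with 1 array left out ran from there to 0.185 (without control replicate 2). Leaving out 1 array also moved other named differences of at least 0.1 by over 1.5 times: EIF1AX to 0.045 (without control replicate 1), EIF3B to 0.042 (control 2), EIF3I to -0.079 (control 1), EIF4EBP1 to -0.068 (Stau1 2), EEF1A2 to -0.318 (Stau1 1) and -0.007 (control 3), ETF1 to 0.023, GSPT1 to 0.065 and STAU1 to 0.091 (control 1 in each). Of 644 values of the named genes under alternatives, 33 changed sign, 32 of them with both differences under 1 SE, and 2 were lost to a filter. Between arrays of the same replicate number the correlations of deviations were 0.02, 0.26 and -0.14. These 6 arrays are too few to settle whether the numbers pair the samples. The replicate block, with 2 genes (EIF2C2 and EIF4G3) at an unadjusted p under 0.05, called none. The intensity filter, chosen after the data were seen, tested 60 of the 65 genes and gave EIF4G1 an adjusted p of 0.999.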
